A study of Glycine max with 8 samples.

Results

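Receptor genes of the soybean nodulation pathway are described here across all libraries of a seedling salt experiment. The members were fixed by locus ID and not by their values: NFR1a (Glyma.02G270800, chromosome 2), NFR1b (Glyma.14G046200, chromosome 14), NFR5a (Glyma.11G063100, chromosome 11) and NARK (Glyma.12G040000, chromosome 12). They are 4 of the 47268 loci that the deposited files list together. RNA-seq libraries, 8 in all, came from soybean (Glycine max) seedlings of 2 genotypes. The over-expression genotype (OE) carried extra expression of GmSIN1, a NAC transcription factor gene, and the wild type (WT) was the conventional line WEI6823. The labels name neither the promoter that drives GmSIN1 nor the number of transgenic lines. Hydroponic seedlings aged 2 weeks were exposed for 6 h to 150 mM NaCl or to mock conditions, which gives the groups OE NaCl, OE mock, WT NaCl and WT mock with 2 libraries each, numbered 1 and 2. Equal amounts of root and leaf RNA were combined, so each value averages over both organs, and fewer cells of a type and less RNA per cell cannot be told apart.

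Legume roots recognise rhizobia through Nod factors, lipo-chitooligosaccharide signals that the bacteria release. NFR1 and NFR5 are LysM receptor kinases of the root that perceive these signals together, NFR1 with an active kinase domain and NFR5 with one that lacks activity. NARK is a leucine-rich repeat receptor kinase related to Arabidopsis CLAVATA1. It acts in the shoot, where it responds to peptide signals that originate in nodulating roots and restrains further nodule formation, and plants without it form too many nodules. The labels mention no inoculation with rhizobia. Levels are given as counts scaled to the library total (CPM), and levels of different genes are compared only as FPKM, which also divides by length.

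Library totals lay between 5980170 and 7199775 expected counts, so 3 counts in a library equal 0.417 to 0.502 CPM. The OE libraries stood apart from each other. Over loci of at least 10 CPM, the SD of log2(CPM + 1) differences between libraries of 1 group was 0.753 to 0.978 in OE and 0.184 to 0.195 in WT, and OE libraries of equal number were closer to each other (0.240 to 0.577) than those of a group. The labels call libraries of a group biological replicates and say nothing of which plants they came from, so p-values reflect only how far these libraries spread, which may be technical. Leaf, root and nodule markers and the level of GmSIN1 were not analysed here, because no source used here pairs their names with the locus IDs. Of the members, 2 of 4 passed the filter on low counts, NFR1b and NARK. NFR1a, with 4 rounded counts over all libraries, and NFR5a, with 21, did not.

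NARK was the most abundant of the receptors, and it was 5.32-fold higher in OE than in WT seedlings in mock and 3.50-fold higher in NaCl. NFR1b was found in every WT library and in no OE library. NFR5a was found mainly in the OE libraries numbered 1. NFR1a was close to the detection limit throughout.

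**Figure D1:**
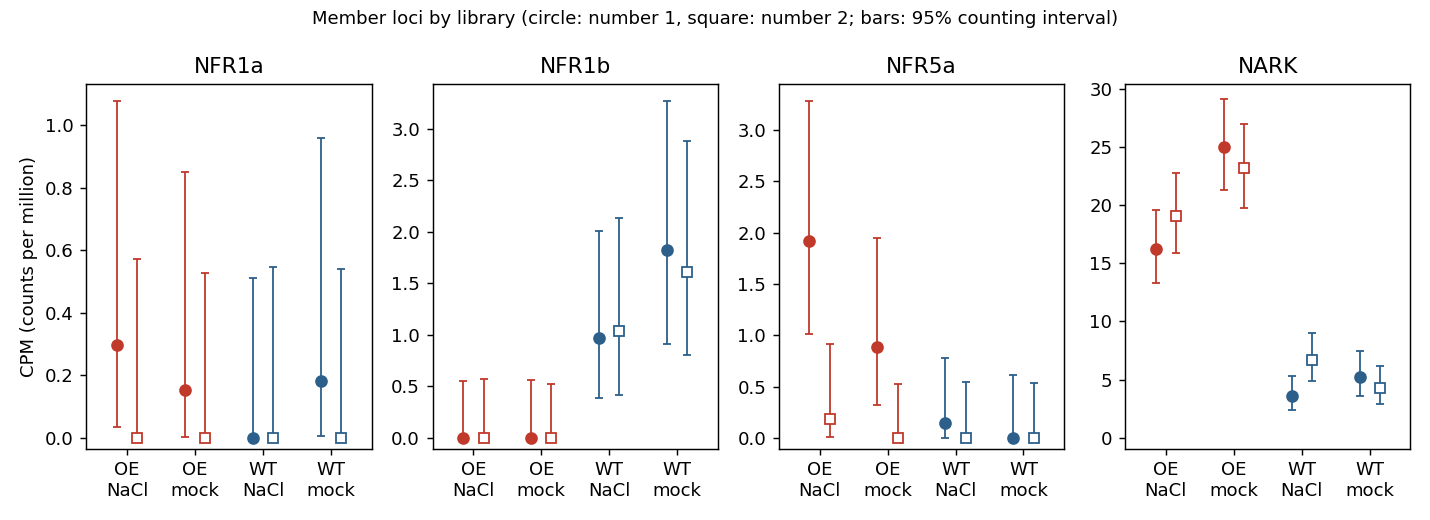
CPM of each member locus in every library, by group, with exact 95% Poisson counting intervals; circles are libraries numbered 1, squares those numbered 2, and each panel has its own axis. NARK lies between 16.2 and 25.0 CPM in OE and between 3.64 and 6.71 CPM in WT, and NFR1b is at 0 in all 4 OE libraries.

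NFR1b, a copy of the kinase-active Nod factor receptor, had 0 counts in both OE mock libraries, against 10.91 and 11 expected counts in WT mock libraries 1 and 2. In NaCl it again had 0 counts in both OE libraries, against 7 counts in each WT library. In CPM the WT libraries stood at 1.82 and 1.61 in mock and at 0.972 and 1.04 in NaCl. No OE library reached any WT library in either treatment. With OE set at 3 counts over the group, WT stood 7.72-fold higher in mock and 4.40-fold higher in NaCl. These folds allow for counting error in OE and not in WT, so they are no strict bounds.

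The genotype difference of NFR1b passed the test in mock (edgeR's quasi-likelihood test, Benjamini-Hochberg adjusted p = 0.0441 over 34023 loci) and missed it in NaCl (edgeR adjusted p = 0.0646). NFR1b reached the level of the filter only in WT mock, the group where it was highest. It thus entered the test through the same difference that was tested. In mock 4.72% of the tested loci were called lower in OE, and in NaCl 4.27%. Groups that did not overlap, with OE lower, were found at 35.7% of tested loci in mock and 30.1% in NaCl. Among 1736 loci within 2-fold of the mean level of NFR1b, 0.864% were called lower in mock. These loci had passed the filter too, which at so low a mean favours uneven levels, so they are no neutral background. The fitted log2 fold changes, -6.51 in mock and -5.75 in NaCl, depend on the prior count and are no bounds. At least 7 counts in every WT library, the lowest WT count of NFR1b, were found at 30092 tested loci, of which 5, NFR1b included, had 0 counts in all 4 OE libraries. That pattern was looked for after the values of NFR1b were seen. Many of the 30092 loci stood far above NFR1b in level, so the 5 do not show how rare the pattern is at loci of its level. Refits without a library kept the log2 fold change in mock between -6.59 and -6.44, but the call was lost without either WT mock library (edgeR adjusted p = 0.242 without number 1 and 0.237 without number 2), either OE mock library (0.0788 and 0.126) and either WT NaCl library (0.127 and 0.129). The refits without a WT library also lost most calls over all loci: without either WT mock library 0 loci were called higher and 1 lower in mock, and without WT NaCl library 1 or 2 the lower calls numbered 250 and 226, against 1607 with all libraries.

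**Figure D2:**
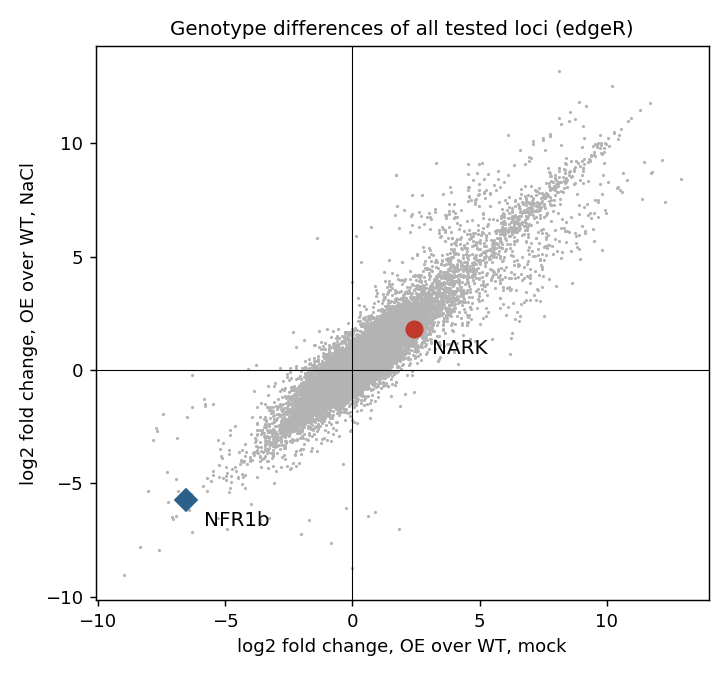
Fitted log2 fold change of OE over WT in mock (horizontal axis) and in NaCl (vertical axis) for the 34023 tested loci (grey points, edgeR), with NARK (red circle) and NFR1b (blue diamond). NARK lies at 2.41 and 1.81 and NFR1b at -6.51 and -5.75, the last pair fitted against 0 counts in OE.

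NFR1a, the other NFR1 copy, whose RefSeq entry (Glycine_max_v4.0) on the same chromosome has the symbol RJ1 after the classical non-nodulation locus, was nearly undetected. It had 2 counts in OE NaCl library 1 and 1 count in OE mock library 1, and it had 0 in both OE libraries numbered 2. In WT it had 1.09 expected counts in mock library 1 and 0 in the other 3 libraries. Every group was at or under the floor of 3 counts, so no fold is given, and any difference was not detectable at this depth.

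Both NFR1 copies were also read as a pair, since reads that fit both loci are divided between them. In WT mock library 1 the 1.09 counts of NFR1a and the 10.91 of NFR1b add to 12 whole counts. The pair had 1 and 0 counts in OE mock libraries 1 and 2, against 12 and 11 in WT mock. In NaCl it had 2 and 0 counts in OE, against 7 and 7 in WT. Both treatments thus had lower pair sums in OE than in WT without overlap, whichever copy the reads were given to. Single tested loci were lower in OE without overlap at 35.7% in mock and 30.1% in NaCl. Nearly all counts of the pair in WT were those of NFR1b, so the sums are not separate from its result. All NFR1 counts in OE lay in NFR1a, whereas NFR1a held 9.08% of the pair in WT mock library 1 and 0% in the other 3 WT libraries. Between the genotypes the NFR1a share differed by 97.7 percentage points (OE minus WT; exact two-sided permutation test, p = 0.0667, the smallest this design allows). Only 2 OE libraries entered that test, with 3 counts in all, because the OE libraries numbered 2 had no NFR1 count. Since NFR1b had no counts in OE, any NFR1 count there made the share 100%. The test therefore restates the absence of NFR1b and cannot show a switch between the copies. NaCl and mock libraries had mean shares of 33.3% and 36.4% (3 libraries each, exact permutation p = 1, where 0.1 is the smallest possible). Both means combine OE at 100% with WT at 9.08% or less, in the same mix of genotypes. That test ignored genotype, so no effect of salt can be read from it.

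The files list 1 model of NFR1a, with a coding length of 1836 bases, and 2 models of NFR1b, of 1815 and 1056 bases. The shorter NFR1b model received 2.31 expected counts in WT NaCl library 2, beside 4.69 for the longer one, and 0 in all other libraries. Every other NFR1b count belonged to the longer model.

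NFR5a, the partner receptor whose kinase domain lacks activity, had 12.84 and 1.20 expected counts in OE NaCl libraries 1 and 2, against 1.03 and 0 in WT NaCl. In mock it had 5.79 and 0 counts in OE, against 0 and 0 in WT. Its levels in the OE libraries numbered 1 were 1.92 CPM in NaCl and 0.884 CPM in mock. OE library 2 overlapped with WT in mock, both at 0, and exceeded the highest WT NaCl library by 0.186 against 0.143 CPM in NaCl, less than the counting error. The ratio of OE to WT in NaCl was 14.8 with an exact 95% counting interval of 2.26 to 627. In mock the OE counts, all in library 1, gave a level 1.83 times that of 3 counts in both WT libraries together. That value allows for counting error in WT and not in OE, so it is no bound. The interval in NaCl covers counting error only, and neither value covers the spread between OE libraries. NFR5a did not pass the filter. Without a filter its genotype difference had an edgeR adjusted p of 0.356 in mock and 0.346 in NaCl. All 4 of its nonzero values were fractional, so its reads were shared with other models. The RefSeq table lists a second copy, NFR5B, on chromosome 1, which was not analysed here because the table gives no locus ID of the files' kind.

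NARK, the receptor that limits nodule number, had the most counts of the members. It had 163.46 and 161.88 expected counts in OE mock libraries 1 and 2, against 31.49 and 29.59 in WT mock. This corresponds to 24.0 ± 1.28 CPM in OE and 4.80 ± 0.660 CPM in WT (SD, n = 2 each). Each OE library lay above 4 times the level of either WT library. NARK counts were fractional in all 8 libraries, so part of its reads was shared with other models, and the related CLV1A, which the RefSeq table places on chromosome 11, was not analysed here. The log2 fold change was 2.41 ± 0.33 (standard error), or 5.32-fold higher in OE (edgeR adjusted p = 0.0127), where 4.2% of tested loci were called higher.

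Under NaCl NARK had 108.79 and 123.29 expected counts in OE libraries 1 and 2, against 26.24 and 45.33 in WT. The levels were 17.6 ± 2.00 CPM in OE and 5.18 ± 2.17 CPM in WT (SD, n = 2 each), and again the genotypes did not overlap. The log2 fold change was 1.81 ± 0.32 (standard error), or 3.50-fold higher in OE (edgeR adjusted p = 0.0251), where 3.62% of tested loci were called higher. Groups without overlap, with OE higher, were found at 29.1% of tested loci in mock and 26.6% in NaCl. Among 13142 loci within 2-fold of the mean level of NARK, 3.51% had a log2 fold change at least as high in mock and 5.18% in NaCl. The call in mock was lost without either WT mock library (edgeR adjusted p = 0.134 without number 1 and 0.155 without number 2), where the log2 fold change was 2.53 and 2.31 and 0 of all loci were called higher. The call in NaCl was lost when only the 4 NaCl libraries were fitted (0.101), without WT NaCl library 1 (0.182) or 2 (0.096), and without WT mock library 1 (0.075) or 2 (0.072). Calls higher in OE over all loci numbered 98 with only the 4 NaCl libraries and 0 without either WT NaCl library, against 1232 with all libraries.

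**Figure D3:**
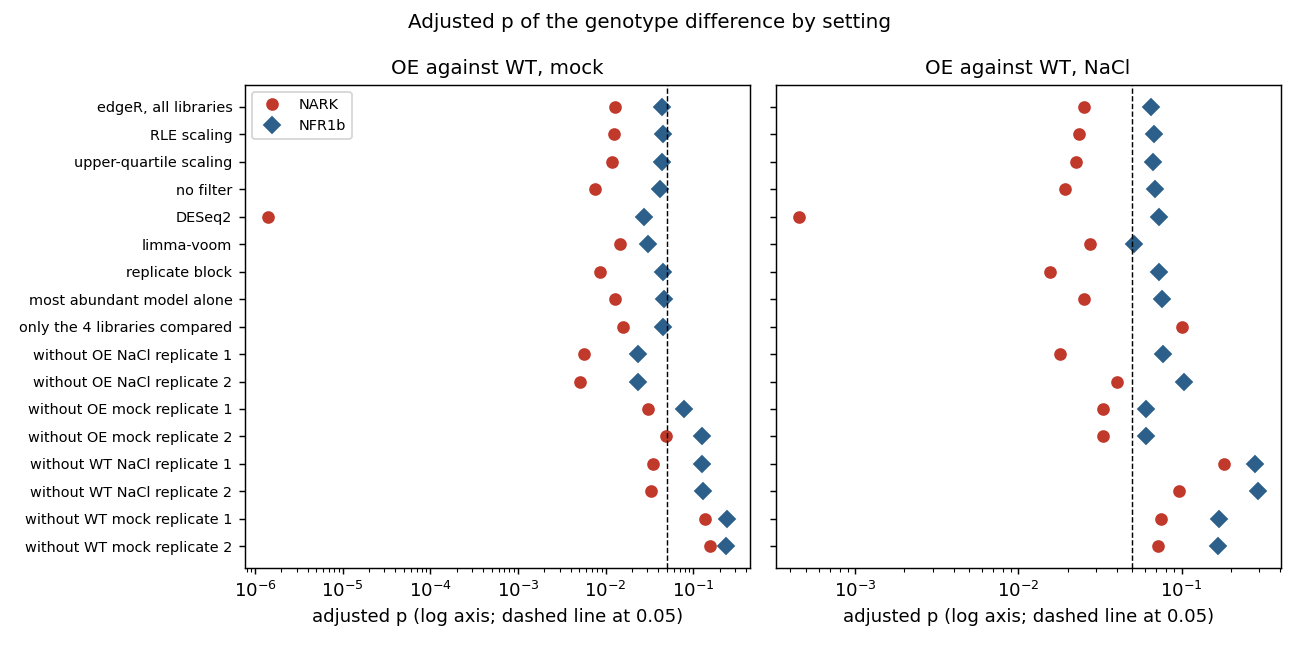
Benjamini-Hochberg adjusted p (log axis) of the genotype difference of NARK (red circles) and NFR1b (blue diamonds) under each setting except the fits without both OE libraries of one number, in mock on the left and NaCl on the right; the dashed line is the threshold of 0.05. In mock NARK passes except without either WT mock library, and in NaCl NFR1b lies right of the line under every setting drawn.

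On NARK the OE libraries of a group differed less than at the median locus of like level. Between OE mock libraries 1 and 2 NARK differed by 0.10 on the log2(CPM + 1) scale, where loci of like level had a median difference of 0.43. Of these loci 13.2% were closer than NARK. Like level means within 2-fold of the mean of NARK over all 8 libraries, 12.9 CPM, which lay above its WT and below its OE levels. Counting error therefore weighs more on NARK than on a typical like locus in WT, and less in OE. In OE NaCl NARK differed by 0.22, against a median of 0.49, and 24.2% of like loci were closer. In WT the position was the other way round: WT NaCl libraries differed by 0.73, more than 99.3% of like loci, whose median was 0.15. WT mock libraries differed by 0.23, against a median of 0.15, and 68.8% of like loci were closer. On this scale the WT NaCl libraries differed most, and the genotype difference of NARK in NaCl was 1.43 on the log2 scale without WT NaCl library 1 and 2.31 without library 2.

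Per length, NARK was the highest of the members in every library. Its level was 5.34 and 6.27 FPKM in OE NaCl, 8.20 and 7.60 FPKM in OE mock, 1.20 and 2.21 FPKM in WT NaCl and 1.73 and 1.42 FPKM in WT mock. This placed it above 43.9% to 55.2% of the loci listed in each OE library and above 20.6% to 28.7% in each WT library. In WT, NFR1b followed at 0.53 and 0.70 FPKM in NaCl and 0.99 and 0.87 FPKM in mock, with NFR5a and NFR1a at 0.10 FPKM or less. In the OE libraries numbered 1 the order below NARK was NFR5a (1.05 FPKM in NaCl, 0.48 in mock), with NFR1a at 0.16 and 0.08 FPKM on 2 and 1 counts and NFR1b at 0 counts, which could not be ranked against each other. In the OE libraries numbered 2 no member other than NARK exceeded 0.10 FPKM. NFR5a and NFR1a could not be ranked against each other in WT or in the OE libraries numbered 2, where each had at most 1.20 counts.

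No member passed a test for salt with all libraries in the fit. In OE seedlings NARK was lower in both NaCl libraries (16.2 and 19.1 CPM) than in both mock libraries (25.0 and 23.1 CPM). Groups without overlap in this direction were found at 7.32% of tested loci. The log2 fold change, -0.50 ± 0.30 (standard error), did not pass (edgeR adjusted p = 1). It passed only without both OE libraries numbered 2 (log2 fold change -0.60, edgeR adjusted p = 0.039), a fit added after the data were seen in which a lone library per OE group was assumed to vary like the WT groups and which called 3687 loci lower. In WT seedlings NARK overlapped between 3.64 and 6.71 CPM in NaCl and 5.27 and 4.33 CPM in mock. Its log2 fold change there was 0.10 ± 0.33 (standard error; edgeR adjusted p = 1), and the direction turned with the WT library left out. The difference of the salt effect between OE and WT, an interaction of -0.60 ± 0.45 (standard error) on the log2 scale, did not pass either (edgeR adjusted p = 1). It was -0.98 without WT NaCl library 1 and -0.12 without WT NaCl library 2.

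NFR1b in WT stood at 0.972 and 1.04 CPM in NaCl, below the 1.82 and 1.61 CPM in mock. Of the tested loci 18% had lower NaCl groups without overlap in WT. Its counting intervals, 0.391 to 2.00 CPM and 0.417 to 2.14 CPM in NaCl and 0.908 to 3.27 CPM and 0.804 to 2.88 CPM in mock, overlap in every pair, and the log2 fold change, -0.76 ± 0.66 (standard error), did not pass (edgeR adjusted p = 1). In OE it was at 0 in both treatments, so neither a salt effect nor an interaction could be read. NFR5a overlapped between OE NaCl (1.92 and 0.186 CPM) and OE mock (0.884 and 0 CPM). In each salt comparison and in the interaction 0% of the tested loci passed in edgeR, and the count was likewise 0 with limma-voom and with DESeq2. At an unadjusted p under 0.05 edgeR had 111 loci for salt in WT, 507 in OE and 231 for the interaction. These fits share 1 estimate of spread per locus over all groups, OE included. With only the 4 WT libraries edgeR called 12 loci higher and 3 lower in NaCl, and 2037 had an unadjusted p under 0.05. Neither NARK nor NFR1b passed there. With only the 4 OE libraries 0 loci were called and 27 had such a p. The share of 0% is therefore no measure of how many loci respond to salt.

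Loci next to the members in ID order were read against the shares over all tested loci in mock, 4.2% called higher and 4.72% called lower. Of the 12 loci around NARK, 9 were tested, with log2 fold changes of OE over WT in mock between -1.41 and 0.61. The only called neighbour, 4 places before NARK, was lower in OE, in the opposite direction to NARK. Around NFR1b 8 of 12 neighbours were tested and lay between -1.33 and 0.71, and 1 was called, also lower in OE. The locus just after NFR1b had 0 counts in all 4 OE libraries and at most 0.59 in a WT library. The locus just before it had 135.5 and 189.7 expected counts in OE mock, against 274.8 and 324.4 in WT mock. Around NFR1a 8 neighbours were tested and 1 was called higher.

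Of the 12 neighbours of NFR5a 11 were tested and 3 were called higher in OE in mock and in NaCl, where 4.2% and 3.62% of all tested loci were. The neighbours 5 and 4 places before it were nearly silent in WT. The nearer of these had 97.88 and 789.08 expected counts in OE mock libraries 1 and 2, against 1 and 0 in WT mock. These loci were higher in the OE libraries numbered 2, whereas NFR5a had most of its counts in those numbered 1, so it did not follow them across libraries. Nearer loci went both ways. The locus just before NFR5a was higher in the libraries numbered 1, as NFR5a was (10.06 against 3 expected counts in OE mock, 16.9 against 6.4 in OE NaCl). The locus just after it was higher in those numbered 2 (15.92 against 2 in OE mock, 17.59 against 7 in OE NaCl).

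**Figure D4:**
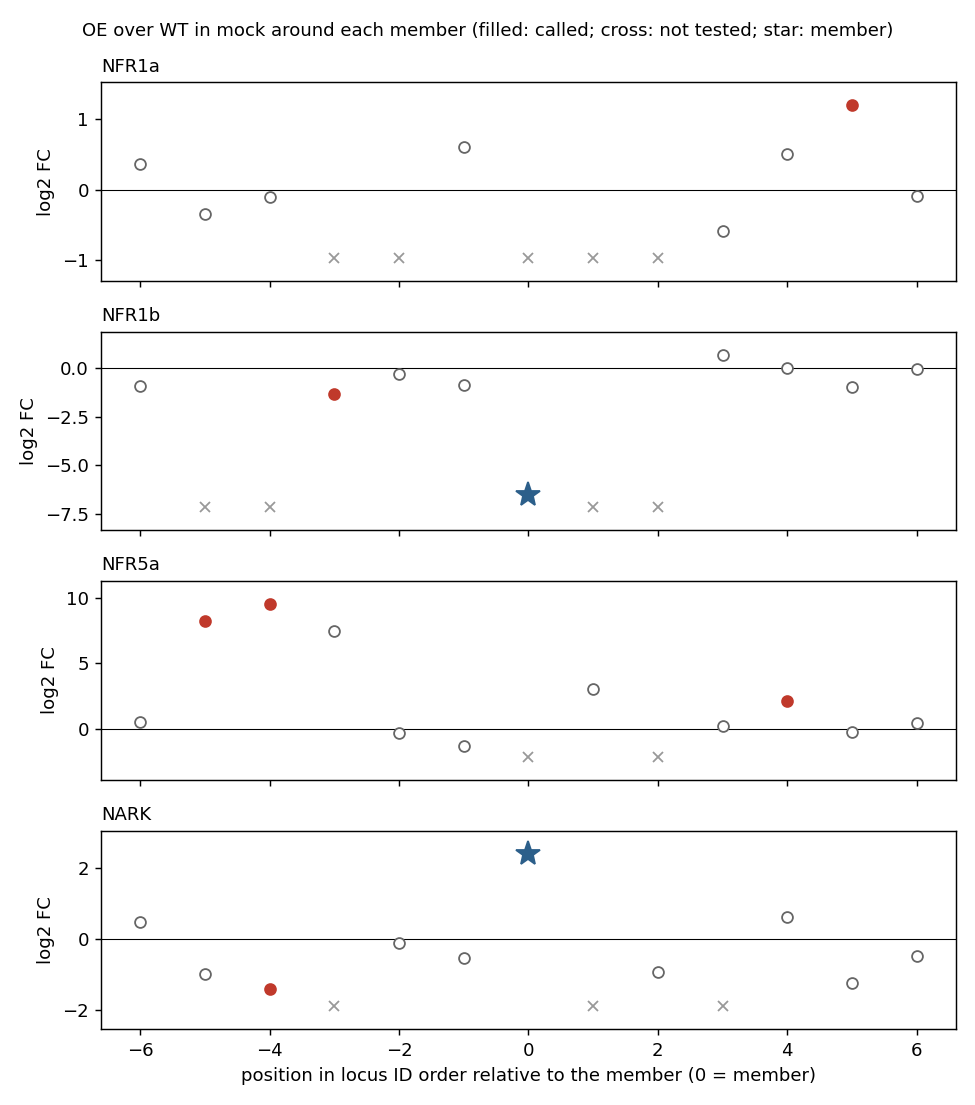
Log2 fold change of OE over WT in mock (edgeR) for the 6 loci on each side of every member, in the order of their IDs; filled circles are called at an adjusted p of 0.05, open circles are not, crosses mark loci not tested (their height has no meaning) and stars the member. NARK at 2.41 and NFR1b at -6.51 stand apart from their tested neighbours, and values fitted against 0 counts are no bounds.

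Profiles most like those of the tested members were sought by the root mean square difference of log2(CPM + 1), each centred on its own mean, over 8 libraries. For NARK the nearest locus was Glyma.04G247600 at 0.164, where the median tested locus lay at 1.05. It had 17.0 and 19.2 CPM in OE mock, against 3.54 and 3.03 CPM in WT mock, and 11.3 and 17.9 CPM in OE NaCl, against 2.82 and 3.99 CPM in WT NaCl. The next, Glyma.16G163700, lay at 0.164 as well, and it too had its lowest WT value in NaCl library 1 and its lowest OE value in NaCl library 1, as NARK did. For NFR1b the nearest loci were Glyma.17G247200 at 0.107 and Glyma.10G265700 at 0.123, against a median of 0.679. Unlike NFR1b both kept counts in OE: Glyma.17G247200 had 5.82 and 4.71 CPM in OE mock, against 17.1 and 14.2 CPM in WT mock. Likeness to NFR1b is a weak description, since a pseudocount of 1 CPM compresses differences at its level. All 4 loci carry no name in the sources used here.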

How the data were processed

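Transcripts were measured by RNA-seq in 8 libraries of mixed root and leaf RNA. The submitters' processing notes name RSEM without a version, and the genome build, annotation, aligner and strandedness are not given in the sources read for this work. Per the file headers, the deposited columns are expected count, FPKM and length by gene model. Listed models have an expected count of at least 0.01, and unlisted ones were taken as 0. The authors' FPKM values were summed over models and used only to compare levels between genes. All lengths are multiples of 3, so they are coding lengths.

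For each locus the authors' expected counts were added up across its models, then rounded. The fit used edgeR 4.0.16 under R 4.3.3, with filterByExpr, TMM scaling, glmQLFit, glmQLFTest, a coefficient for each of the 4 groups and all 8 libraries, which leaves 4 residual degrees of freedom. Benjamini-Hochberg adjustment was made over 34023 loci per comparison, at a threshold of 0.05. Alternatives were upper-quartile and RLE scaling, omission of the filter, DESeq2 1.42.0, limma-voom (limma 3.58.1), a replicate block, only the 4 libraries compared, the most abundant model alone and each library left out; fits without the OE libraries of one number were added after the data were seen. The scripts were tested on simulated counts. Intervals are exact 95% Poisson or binomial intervals and cover counting error only.

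The member loci were named by ID, and members and lists were chosen with earlier results of these data known. The named loci are the members and, for each tested member, the 3 loci most like it, of which 2 are printed because their IDs have no names. A list of further pathway genes and the marker lists could not be applied, because the RefSeq table (Glycine_max_v4.0) gives none of its 59048 genes a locus ID of the files' kind.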

Additional observations from a re-analysis of the deposited data

How the results depend on the processing

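NARK stayed higher in OE than in WT under every alternative run in both treatments. NFR1b was lower in OE in every fit that included it, but no setting could have turned that direction, since no OE library had an NFR1b count. The call of NARK in NaCl was lost with only the 4 NaCl libraries (log2 fold change 1.83), and NFR1b could not be fitted there because it did not pass the filter. With 1 library left out, the log2 fold change of OE over WT ranged from 2.31 to 2.53 for NARK in mock, 1.43 to 2.31 for NARK in NaCl, -6.59 to -6.44 for NFR1b in mock and -5.77 to -5.70 for NFR1b in NaCl, and the interaction of NARK from -0.98 to -0.12. The value of NFR1b varied more with the tool: DESeq2 gave -5.87 in mock and -5.09 in NaCl, and limma-voom -4.51 and -3.80. Fits without the OE libraries numbered 1 or 2 left a lone library in each OE group, which was assumed to vary like the WT groups. The log2 fold change of NFR1b in NaCl was -5.73 and -5.78 in them, and that of NARK for salt in OE was -0.60 without number 2. Both crossed the threshold there, but such fits hold no spread between OE libraries, so these calls carry no weight. For salt NARK ranged from -0.39 to 0.47 in WT, being -0.0076 without WT mock library 2, and from -0.71 to -0.32 in OE. The NFR1a share (NaCl minus mock, -3.03 points) ranged from -36.4 to 28.8 points, being 13.6 without either WT NaCl library. That share shifts with the genotypes that remain in a treatment, since OE stood at 100% and WT at 9.08% or less. The cause of the other changes was not tested. A replicate block left every member's call as it was (NARK in mock 2.41, edgeR adjusted p = 0.00858; NFR1b in mock -6.51, 0.0449), while the higher and lower calls over all loci became 2561 and 2110 in mock, against 1429 and 1607. Deviations of equal-numbered libraries correlated at 0.742 between the OE groups but at 0.00930 between the WT groups, and the labels do not pair the numbers. DESeq2 called 3102 higher and 2044 lower loci in mock and 2819 and 1801 in NaCl, against 1232 and 1454. Depth limits NFR1a and NFR5a, which rest on 4 and 21 counts.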
